A study of Mus musculus with 14 samples.

Results

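The 734 regions described here are wide but weakly marked promoters: stretches at least 1500 and under 3000 bp wide, assigned to a protein-coding transcript (a RefSeq identifier starting with NM_) whose H3K4me3 signal was low. They were chosen by their measured signal, a mean under 60 over the 4 postnatal saccharin libraries, so their low level in those libraries is a description and not a result. They make up 11.6% of the 6353 wide regions with such a transcript and lie among 14881 regions with values in all, and they belong to 721 genes. Signal means read counts summed over a region and already adjusted by the submitters.

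The study profiled H3K4me3 by ChIP-seq (immunoprecipitation of chromatin followed by sequencing) in cerebral cortex taken at 3 months of age from C57BL/6J mice, after developmental exposure to nicotine or to saccharin, the control. The postnatal-only exposure has 4 nicotine and 4 saccharin libraries, and the pre- and postnatal exposure has 3 nicotine libraries (replicates 1, 3 and 4) and 3 saccharin libraries, each exposure in a table of its own. The labels describe drinking solution for pregnant dams from conception, its withdrawal from the offspring at day 21 and an undisturbed period until day 90, in the same words for every sample, so the postnatal-only course is known from the group names alone. No sex, litter or number of animals is given in the labels, so p-values measure only the spread between these samples, which may be technical.

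H3K4me3 is placed on nucleosomes around transcription start sites, and in most tissues the width and height of its peaks go with the CpG content and the activity of the promoter. A wide, low peak in a tissue of many cell types can arise where only some cells carry the mark, and promoters of developmental regulators are known to carry H3K4me3 together with the Polycomb mark H3K27me3, a state called bivalent. H3K27me3 and expression were not measured in these files, so neither state was tested. In bulk tissue, fewer marked cells and less mark per cell cannot be told apart.

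The promoters of 6 of these genes are printed first because they show how different in CpG content the sequences in the set can be. Six2, a homeobox factor of kidney and craniofacial development, and Zic1, a zinc finger factor of the dorsal neural tube and cerebellum, stand for CpG-rich promoters of developmental regulators. Syp, the synaptic vesicle protein synaptophysin, stands for the X-linked genes and Rps9, a protein of the small ribosomal subunit, for housekeeping genes. Kcnmb2, an accessory subunit of calcium-activated potassium channels, and Scn1a, the sodium channel Nav1.1, stand for neuronal genes whose promoters hold fewer CpG than the median of the set. Each sequence is 300 bases from RefSeq (build GRCm38.p6), 250 before and 50 after the annotated start, read 5′ to 3′ on the gene's strand, with every CpG dinucleotide in capitals. The regions themselves are on mm9, so whether a printed window lies within its region was not tested.
Six2 promoter, chr17:85688205-85688504, minus strand: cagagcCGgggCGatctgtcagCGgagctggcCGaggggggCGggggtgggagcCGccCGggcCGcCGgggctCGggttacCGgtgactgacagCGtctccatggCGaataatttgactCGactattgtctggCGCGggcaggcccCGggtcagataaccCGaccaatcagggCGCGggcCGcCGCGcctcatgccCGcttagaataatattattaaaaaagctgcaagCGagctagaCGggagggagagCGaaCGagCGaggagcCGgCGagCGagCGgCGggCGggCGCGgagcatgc
Zic1 promoter, chr9:91365719-91366018, minus strand: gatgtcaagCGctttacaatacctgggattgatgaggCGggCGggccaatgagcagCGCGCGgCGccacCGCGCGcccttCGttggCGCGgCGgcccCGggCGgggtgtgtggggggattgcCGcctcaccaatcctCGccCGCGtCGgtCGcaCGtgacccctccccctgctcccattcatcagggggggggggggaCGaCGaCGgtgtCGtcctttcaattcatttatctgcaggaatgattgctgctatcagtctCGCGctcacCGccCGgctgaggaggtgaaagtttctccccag
Syp promoter, chrX:7638330-7638629, plus strand: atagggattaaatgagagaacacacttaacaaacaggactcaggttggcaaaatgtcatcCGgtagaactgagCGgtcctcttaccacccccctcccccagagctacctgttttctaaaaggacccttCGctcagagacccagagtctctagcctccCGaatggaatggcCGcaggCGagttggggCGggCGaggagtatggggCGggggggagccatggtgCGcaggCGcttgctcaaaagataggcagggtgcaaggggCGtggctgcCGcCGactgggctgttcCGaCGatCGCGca
Rps9 promoter, chr7:3703791-3704090, plus strand: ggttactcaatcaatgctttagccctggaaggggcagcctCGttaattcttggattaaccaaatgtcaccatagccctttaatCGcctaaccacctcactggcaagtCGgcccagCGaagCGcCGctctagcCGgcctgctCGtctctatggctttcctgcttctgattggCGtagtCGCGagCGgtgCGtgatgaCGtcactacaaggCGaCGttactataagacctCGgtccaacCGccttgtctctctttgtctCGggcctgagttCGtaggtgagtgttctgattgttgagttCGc
Kcnmb2 promoter, chr3:31902453-31902752, plus strand: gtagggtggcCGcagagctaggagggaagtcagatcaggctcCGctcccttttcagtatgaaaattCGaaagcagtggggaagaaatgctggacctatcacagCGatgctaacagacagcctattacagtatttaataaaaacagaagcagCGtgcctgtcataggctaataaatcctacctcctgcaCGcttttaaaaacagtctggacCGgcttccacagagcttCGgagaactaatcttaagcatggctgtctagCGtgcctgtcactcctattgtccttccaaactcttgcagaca
Scn1a promoter, chr2:66440788-66441087, minus strand: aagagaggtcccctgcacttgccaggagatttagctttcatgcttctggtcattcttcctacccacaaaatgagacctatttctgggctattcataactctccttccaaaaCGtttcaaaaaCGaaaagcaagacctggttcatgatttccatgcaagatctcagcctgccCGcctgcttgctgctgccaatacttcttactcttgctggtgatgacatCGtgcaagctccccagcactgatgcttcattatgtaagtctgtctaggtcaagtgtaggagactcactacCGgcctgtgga
These windows hold 37 CpG in Six2, 31 in Zic1, 18 in Syp, 21 in Rps9, 9 in Kcnmb2 and 5 in Scn1a. Their GC content runs from 67.3% in Six2 to 47.3% in Scn1a.

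For 386 of the regions the gene had a single region and a single promoter entry in RefSeq, which allowed the sequences to be summarised. Their median promoter held 18 CpG at 58.7% GC, below the 25 CpG and 65.0% GC of 3214 promoters of the other wide regions. It was close to the 16 CpG and 57.3% GC at 1560 promoters of regions that were equally weak but under 1500 bp wide. Over all 22862 RefSeq promoters the medians were 7 CpG and 52.3% GC, so most weakly marked promoters still had more CpG than a typical annotated one. A CpG count under 0.4 of that expected from base composition was found in 7.77% of the weakly marked promoters, 3.92% of the other wide ones, 18.7% of the narrow weak ones and 52.1% of all promoters.

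Simple motifs were counted in the same windows on both strands. GGGCGG, the core of the GC box bound by Sp factors, overlaps CpG by its own letters and was present in 60.1% of weakly marked promoters, 76.4% of other wide promoters and 35.2% of all promoters. CCAAT was present in 40.9%, 35.8% and 38.2%, and TATAAA in 6.74%, 5.44% and 14.8%. A match is a string of letters and does not show that a factor is bound.

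Weakly marked regions were narrower than the other wide ones, with a median of 1670.5 bp against 1935 bp, and 11.6% of them reached 2000 bp against 43.7%. The rule favours this difference, since it cuts on signal summed over the region. Their median summed signal in postnatal saccharin was 47.8, ranging from 11.9 to 59.9, against 167.5 in the other wide regions. Scaled to length the medians in the same libraries were 27.0 and 86.9 per kb; the sum under 60 over at least 1500 bp keeps every chosen region low on this scale too. In the pre- and postnatal saccharin libraries, which the rule did not use, the medians were 21.1 and 50.9 per kb. The threshold cuts through a continuous range. Just inside it lay Umps (59.81), Rps3 (59.82), 1110002N22Rik (59.86), Ptcd3 (59.90) and Fam120b (59.90), and just outside it Rhof (60.003), Idh1 (60.03), Ntm (60.08), Aasdhppt (60.18) and Dll4 (60.22), all as summed signal.

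The lowest summed signal was at Kcnmb2 (mm9 chr3:31801118-31802619). It held 6.75 and 16.97 in the 2 postnatal saccharin samples and 19.97 and 8.75 in the 2 nicotine samples. Here and below a postnatal sample is the mean of libraries 1 and 2, or of libraries 3 and 4, of a group, since those pairs differed by no more than counting noise (variance 0.984 to 1.08 times that noise, if the values are read as counts) and were counted as 1 sample. In the pre- and postnatal libraries Kcnmb2 held 9.31, 21.1 and 34.4 with nicotine and 19.7, 14.4 and 20.8 with saccharin, so the groups overlapped in both exposures. The genes that followed included Ankrd34c, Upf3b (a factor of nonsense-mediated mRNA decay), Trim16, Eftud1, Cdh18 (a cadherin), Pde1a, Myadm and one region of Pde4d, from 17.0 to 20.4.

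The low signal was also present in libraries that the rule did not use. In the pre- and postnatal saccharin libraries the weakly marked regions had a median of 37.0 and the other wide regions 99.5, and with nicotine the medians were 38.8 and 100.2. As the tables were adjusted separately, the threshold was carried over by rank: the lowest 11.6% of wide regions in pre- and postnatal saccharin lay under 42.2, and 545 of the 734 regions (74.3%) were among them. In their place 189 other wide regions fell under that value. Only 2 weakly marked regions, C130026I21Rik and Mid1, exceeded the median of all wide regions there, 90.1.

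**Figure D1:**
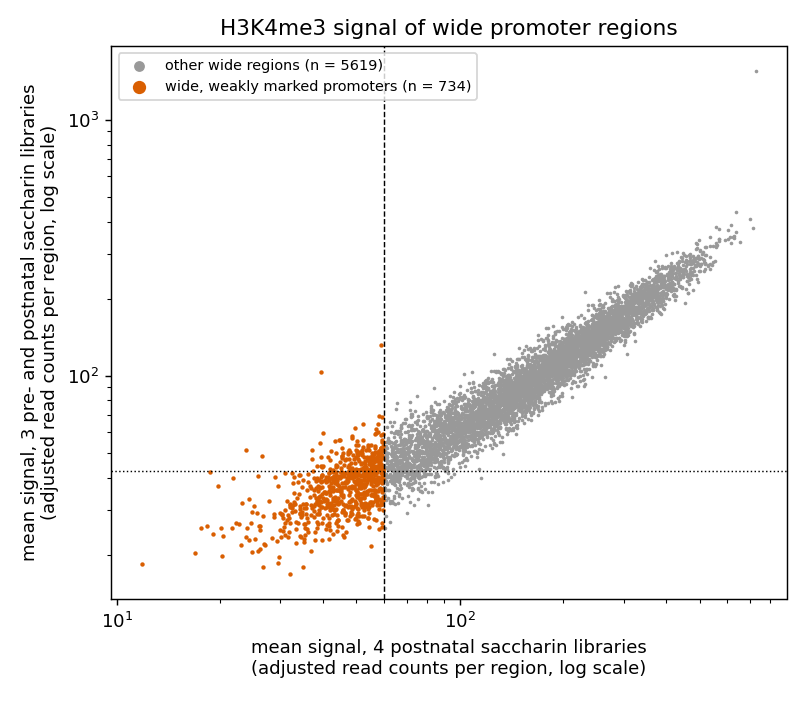
Mean signal of each wide region in postnatal saccharin (horizontal axis) and in pre- and postnatal saccharin (vertical axis), both in adjusted read counts on log scales, with the 734 weakly marked regions in orange and the other 5619 in grey. The dashed line is the threshold of 60 that chose the regions, the dotted line is the value of equal rank, 42.2, and 545 orange points lie under the dotted line.

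Mid1, a microtubule-associated ubiquitin ligase encoded on the X chromosome, varied widely between libraries. Its pre- and postnatal saccharin values were 191.2, 79.7 and 125.1, and its nicotine values 80.6, 128.4 and 42.1, with overlapping groups. After Mid1, the named genes with the highest summed signal in pre- and postnatal saccharin were Htr5a, a serotonin receptor (69.5), Akap6, an anchoring protein for protein kinase A (68.7), Slc4a10, a bicarbonate transporter of neurons (64.9), and Kcna4, a potassium channel (64.7). The lowest were Dok1 (16.8), a region of Ebf3 (17.9), a region of Prkg1 (18.0), Kcnmb2 (18.3) and a region of Cyp26b1 (18.6). Ebf3 is a transcription factor of neuronal differentiation, and Cyp26b1 degrades retinoic acid. Ebf3, Prkg1 and Cyp26b1 each had a stronger region, at 35.4, 71.2 and 20.5 in the same libraries.

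The spread between replicates was larger than at the other wide regions. The median coefficient of variation over 3 libraries was 20.5% in pre- and postnatal saccharin and 29.4% in nicotine, against 11.5% and 16.2% at the other wide regions. The median standard error of a log2 difference was 0.32 against 0.19. The adjusted values do not give back the raw depth, so counting error is known only if they are read as counts. Read that way, variance between pairs of pre- and postnatal saccharin libraries was 1.70 to 2.50 times counting noise, over 14151 regions. Between pairs of nicotine libraries it was 3.23 to 4.53 times, over 13825 regions. The part of counting error in the larger spread at weakly marked regions was not tested.

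Developmental transcription factors were present among these regions but did not fill them. Of 133 wide regions on 6 lists of such factors (homeobox, Fox, Sox and T-box, GATA and Runx, basic helix-loop-helix and Krueppel-type), 27 were weakly marked (20.3%), beside 11.6% of all wide regions. The homeobox list had 6 of 32, among them Six2, Dlx1, Nkx6-1, Hmx1 and Hoxd8. Dlx1, which specifies forebrain interneurons, held 39.99 and 43.6 in the postnatal saccharin samples and 29.1, 19.9 and 25.97 in the pre- and postnatal saccharin libraries. Hoxd8, a patterning gene of the trunk, held 50.4 and 53.0, and 36.3, 25.2 and 23.3. The Sox and T-box list had 6 of 15, with Sox5, Sox6, Tbx2, Tbx18 and 2 overlapping regions of Sox21. The Fox list had 4 of 18 (Foxb2, Foxo6, Foxe3 and Foxe1). These counts are of regions, and some of the genes had a stronger one elsewhere. Foxo6 held 38.6 at the weak region and 45.3 at another, and Tcf4 held 47.9 and 50.2 at weak regions and 182.5 at another. Fezf2, which specifies deep-layer projection neurons, Olig2, a factor of the oligodendrocyte lineage, and Gata6, of endoderm and heart, were also included.

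Signalling genes were represented unevenly, beside the 11.6% of all wide regions. Neurotransmitter receptors had 12 of 50 wide regions (24.0%), among them Htr1a, Htr2a, Htr5a, Grm2, Gabrb1, Gabrb2, Gria3, Grik1, Grik2, Drd1a and Adra1a. Voltage-gated and potassium channels had 10 of 60 (16.7%) and axon guidance and adhesion genes 11 of 74 (14.9%). Among the latter were Nlgn1, Nlgn3 and, at one of its regions, Nrxn2, which encode partners across the synapse. Wnt, BMP, FGF and hedgehog signalling genes had 8 of 63 (12.7%). Neuropeptides, growth factors and their receptors had 2 of 28 (7.14%, Bdnf and Kdr), and Notch and ephrin genes 1 of 17 (5.88%, Epha3). These counts are of regions, and some of the genes had a stronger one elsewhere. Nrxn2, Bdnf and Grik2 each had a stronger region, at 270.8, 74.6 and 70.6 in postnatal saccharin. The calcium channel genes Cacnb4 and Cacna1a held 26.5 and 54.7 at weak regions and 270.5 and 168.5 at another. Scn1a held 38.1 and 77.2 in the postnatal saccharin samples and 73.8, 55.8 and 51.7 in the pre- and postnatal saccharin libraries. At 2854 bp it was among the widest of these regions, and its postnatal saccharin mean came to 20.2 per kb. Neither of the 2 wide regions of nicotinic receptor subunits was weakly marked.

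Housekeeping and other groups were also represented. Ribosomal and mitochondrial proteins had 17 of 113 wide regions (15.0%), among them Rps9, Rpl8, Rps28 and Uqcrb, while proteasome, splicing and translation genes had 6 of 109 (5.50%) and Polycomb and Trithorax proteins 1 of 34 (2.94%, Phf19). Zinc finger proteins had 24 of 144 (16.7%), solute carriers 10 of 119 (8.40%) and imprinted genes 5 of 15 (33.3%: Cdkn1c, Plagl1, Kcnq1, Impact and Inpp5f). Inpp5f held 26.6 at its weakly marked region and 202.8 at another in postnatal saccharin. Both wide regions of testis and germ line genes, Boll and Dazl, which encode RNA-binding proteins of germ cells, were weakly marked. 583 of the 734 regions belonged to none of the 30 lists.

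Markers of cell types were few among the wide regions, so their shares rest on small numbers and are read beside the 11.6% of all wide regions. Of 17 wide regions at pan-neuronal genes 3 were weakly marked (17.6%: Syp, Nrgn and, at one of its regions, Elavl4), and of 13 at excitatory neuron and layer markers 2 (15.4%: Fezf2 and Rorb). The oligodendrocyte, inhibitory neuron and endothelial lists had 1 of 4 each (25%: Olig2, Dlx1 and Kdr), the astrocyte list had 0 of 7, and the microglia list had no wide region. Of 10 at markers of striatum, choroid plexus and thalamus 3 were weakly marked (30.0%): Drd1a, the dopamine receptor of direct-pathway neurons, Kl, of choroid plexus, and Zic1. The median signal was also taken over the strongest region of each marker gene in postnatal saccharin, whatever its width. The median was 87.9 over 20 of 24 pan-neuronal genes, 103.6 over 16 of 24 excitatory markers and 130.5 over 9 of 18 astrocyte markers. The striatal, choroid plexus and thalamic list had 54.9 (14 of 26 genes) and the oligodendrocyte list 49.7 (11 of 22). The inhibitory neuron list had 47.8 (13 of 26) and the endothelial list 45.5 (10 of 24). The microglia list had 46.0 over 2 of 20 genes. Listed genes without a region at a protein-coding transcript were left out, so these medians cover only part of each list.

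The X chromosome held many of these regions. Of 135 wide regions on X, 45 were weakly marked (33.3%), against 689 of 6218 on the autosomes (11.1%); chromosome 7 came next with 77 of 432 (17.8%). The X-linked genes included Syp, Gria3 (an AMPA receptor subunit), Nlgn3, Dmd (dystrophin), Emd (the nuclear envelope protein emerin), Huwe1, Timm8a1, Eif2s3x and Rpl39. The wide regions of X as a whole were lower, with a median of 77.3 against 154.5 on the autosomes in postnatal saccharin, so a fixed threshold takes more of them. The ratio of the X median to the autosomal median was 0.498 to 0.551 over the 8 postnatal libraries, and the 6 pre- and postnatal libraries ran from 0.530 to 0.631. In the pre- and postnatal saccharin libraries, which did not choose the regions, 43 of 135 X regions (31.9%) and 691 of 6218 autosomal ones (11.1%) lay under 42.2. With nicotine the ratio averaged 0.556 ± 0.0128 (SD, n = 3) and with saccharin 0.573 ± 0.0518 (p = 0.8 in an exact two-sided permutation test that cannot go below 0.1). The sex of the animals is not given in the labels, and the number of X copies per cell cannot be told apart from the level on each copy.

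**Figure D2:**
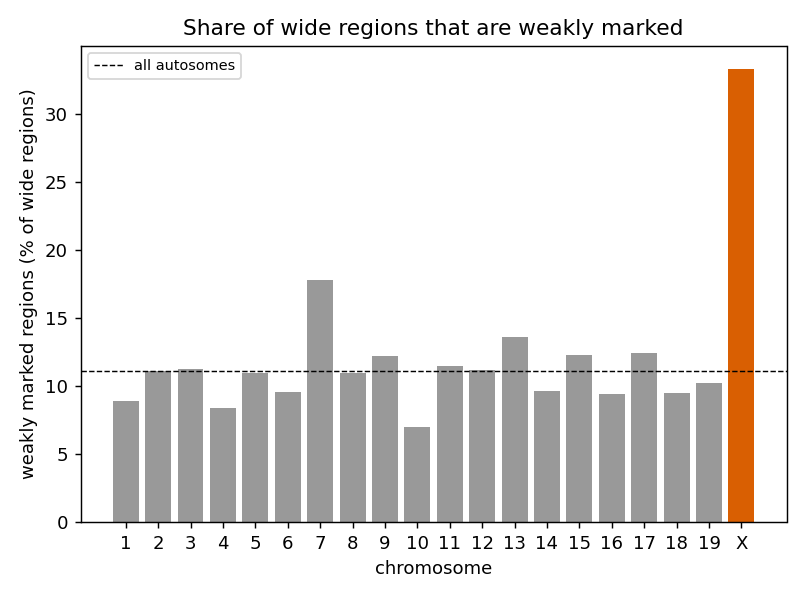
Weakly marked regions as a percentage of the wide regions on each chromosome, with the share over all autosomes as a dashed line. X reaches 33.3%, chromosome 7 reaches 17.8%, and the autosomes together stand at 11.1%.

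Some of these regions belong to genes that carry a stronger region elsewhere. Whether they are alternative promoters was not tested, since regions were not placed against annotated starts, and some lie next to or overlap the other region. 140 of the 734 (19.1%) belonged to a gene with more than 1 region, against 9.77% of the other wide regions, and at 102 (13.9%, against 2.26%) a stronger region of the same gene was present, with a median signal of 139.7. The low signal that chose the set favours the latter count. The distance between the centres of the weak and the strongest region had a median of 41.8 kb. Pde4d, a cyclic AMP phosphodiesterase with many alternative promoters, had 3 weakly marked regions at 20.4, 39.8 and 30.5 in postnatal saccharin. Its strongest region (mm9 chr13:110692226-110694183) held 253. Chd9, a chromatin remodeller, had 2 at 29.8 and 39.2 beside one of 433. Cacnb4, a calcium channel subunit, held 26.5 at the weak region and 270.5 at the strong one, and Clasp2, a microtubule-binding protein, 25.8 and 365.5. Set, a histone chaperone, held 37.5 at the weak region and 386 at the next one.

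Neighbouring regions were closer than at other wide promoters. 103 of the 734 (14.0%) had another region within 5 kb, against 8.52% of the other wide regions, and 17 (2.32%, against 0.623%) overlapped one. In 66 cases the neighbour was stronger, with a median of 86.0, a count that the low signal of the set favours. Overlapping regions share reads, so the 2 regions of Sox21, a factor of neural progenitors, are not independent. They held 60.99 and 57.95 (mm9 chr14:118633599-118635409), and 59.57 and 59.23 (mm9 chr14:118635180-118636716), in the postnatal saccharin samples.

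The first comparison asked whether pre- and postnatal nicotine altered the mark at these promoters, in libraries that did not choose them. No difference passed the test: 0 of 14879 regions tested had an adjusted p under 0.05 in limma (0%), the weakly marked ones included, and adjusted p-values started at 0.987. At an unadjusted p under 0.05, 11 of the 734 regions were higher with nicotine (1.499%, against 1.72% of all regions tested) and 14 were lower (1.91%, against 1.87%), which is near the background in both directions. The median log2 difference was 0.03, against 0.0027 over all regions, and 397 of 734 were above 0. All 734 passed the filter on low values. Without nicotine replicate 1, 106 were higher (14.4%, against 6% of all regions in that fit) and 28 lower (3.81%, against 5.36%) at an unadjusted p under 0.05, with a median of 0.18. Without saccharin replicate 1, 6 were higher (0.817%, against 1.43%) and 5 lower (0.681%, against 1.02%). No weakly marked region had an adjusted p under 0.05 in any of the 13 alternative fits.

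The lowest p among regions lower with nicotine was at Zic1 (mm9 chr9:91258978-91260588), whose CpG-rich promoter is printed above. It held 4.71, 7.37 and 6.87 with nicotine and 33.2, 15.5 and 26.03 with saccharin. All 3 nicotine libraries were below all 3 saccharin libraries, a log2 difference of -1.78 ± 0.49 (SE; limma adjusted p = 0.987). In the postnatal exposure Zic1 held 25.2 and 32.0 with nicotine and 30.3 and 22.1 with saccharin, so those samples overlapped. Zic1 is also on the list of striatal, choroid plexus and thalamic markers; the other two weakly marked regions of that list had 28.6 ± 9.67 (SD, n = 3) with nicotine against 37.5 ± 5.79 with saccharin (Kl) and 32.4 ± 4.76 against 33.3 ± 2.87 (Drd1a). The part of other tissue in the Zic1 values was not tested.

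Taz, the X-linked gene of the mitochondrial cardiolipin enzyme tafazzin (mm9 chrX:71527349-71528982), held 11.3, 12.8 and 14.7 with nicotine and 33.3, 28.0 and 30.3 with saccharin. The groups did not overlap, and the log2 difference was -1.18 ± 0.38 (SE; limma adjusted p = 0.987). In the postnatal exposure Taz held 30.2 and 12.2 with nicotine and 27.9 and 42.4 with saccharin. The weak region of Cacnb4 (mm9 chr2:52412290-52414489) held 22.7, 25.3 and 29.5 with nicotine and 44.8, 58.1 and 42.3 with saccharin, a log2 difference of -0.88 ± 0.29. Tnxb, an extracellular matrix protein, had 21.9 ± 8.90 (SD, n = 3) against 40.9 ± 3.34. Dpysl5, a regulator of axon growth, had 22.2 ± 1.27 against 39.1 ± 4.36. In each of these 5 regions every nicotine library was below every saccharin library, and each had the same adjusted p.

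On the higher side Ilvbl (mm9 chr10:78036797-78038395) held 46.3, 77.1 and 53.97 with nicotine and 41.5, 28.5 and 25.9 with saccharin, a log2 difference of 0.86 ± 0.28 (SE; limma adjusted p = 0.987). Tbrg1, a growth regulator of the p53 pathway, held 41.6, 44.97 and 70.7 against 22.9, 30.98 and 28.1. The remaining 3 were Rsrc2 (50.3 ± 1.90 against 31.4 ± 3.42; SD, n = 3), Eral1, a mitochondrial ribosome assembly factor (47.6 ± 11.1 against 27.9 ± 8.97), and Dpp7, a dipeptidyl peptidase (51.1 ± 9.08 against 31.6 ± 7.13). None of these 5 overlapped between groups. Over the whole set 66 of the 734 regions (8.99%) did not overlap, which is the background level, since 8.95% of all regions tested did not overlap either.

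**Figure D3:**
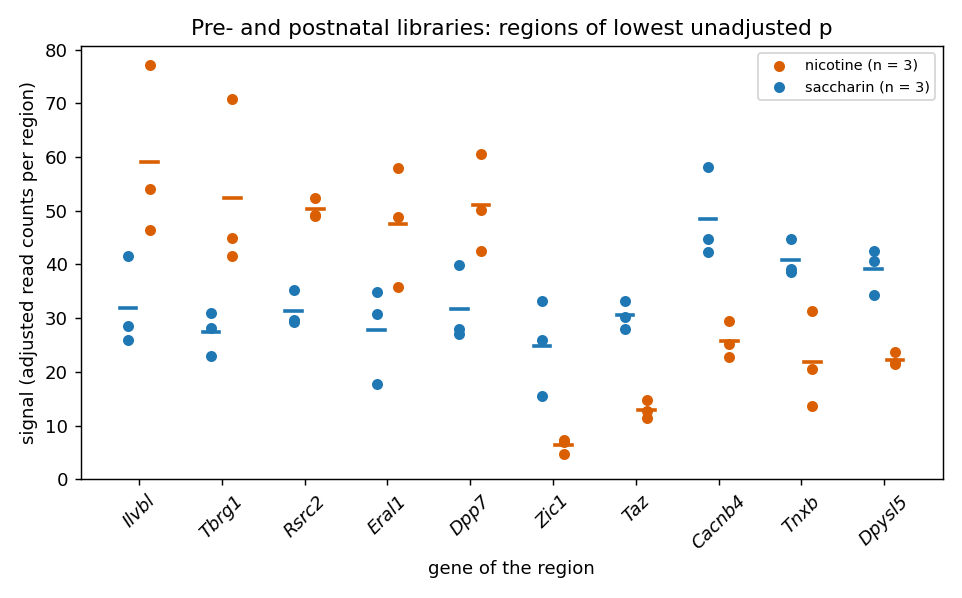
Signal in adjusted read counts of the 5 regions with the lowest unadjusted p in each direction, in the 3 nicotine (orange) and 3 saccharin (blue) pre- and postnatal libraries; each point is a library and each line a mean. The groups do not overlap at any of the 10, whose adjusted p is 0.987.

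Gene lists were not tested as groups, no region on them had an adjusted p under 0.05, and the medians below are descriptions over few regions. The 6 homeobox regions all had a log2 difference under 0, with a median of -0.39, and it was under 0 in all 13 alternative fits. Of the 27 regions on the 6 transcription factor lists 19 were under 0. Axon guidance and adhesion genes were above 0 at 10 of 11 (median 0.21), a median that ran from 0.10 without saccharin replicate 3 to 0.38 without saccharin replicate 1 and 0.39 without nicotine replicate 1, and was 0.13 without nicotine replicate 3. Ribosomal and mitochondrial proteins were above 0 at 14 of 17 (median 0.20), a median that was -0.13 without saccharin replicate 3, 0.06 without nicotine replicate 4 and 0.45 without nicotine replicate 1. Neurotransmitter receptors were divided evenly, 6 above and 6 below 0 (median -0.01), and zinc finger proteins 11 and 13 (median -0.01). Quantile normalisation gave the same signs, with -0.33 for homeobox factors and 0.20 for both adhesion and ribosomal and mitochondrial genes. The X-linked regions had a median of -0.06, with 21 of 45 above 0, and the autosomal ones 0.04, with 376 of 689.

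The level of the whole set within a library was then compared as its median over the median of the other wide regions, a ratio that does not depend on scaling of the library. It was 0.298, 0.401 and 0.432 in the pre- and postnatal nicotine libraries and 0.403, 0.372 and 0.322 with saccharin. The groups overlapped, with 0.377 ± 0.0701 (SD, n = 3) against 0.365 ± 0.0408 (p = 0.8 in the same exact permutation test). The regions took 2.45% ± 0.426 of the signal outside the 15 strongest regions with nicotine and 2.41% ± 0.182 with saccharin (p = 0.8, exact permutation test).

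The ratio varied with the share of signal in the 15 regions of strongest signal, none of which is in the set. In the pre- and postnatal table the nicotine library with the lowest ratio, replicate 1, had the lowest share (19.1%), and the libraries with ratios over 0.4 had shares of 49.7%, 41.9% and 39.9%. The order was not strict, since saccharin replicate 3 had a higher share than replicate 2 (33.1% against 28.8%) and a lower ratio. In the postnatal table the ratio was 0.275 and 0.226 in the 2 nicotine samples, with shares of 25.2% and 10.04%, and 0.238 and 0.319 in the 2 saccharin samples, with shares of 8.47% and 18.7%. In each postnatal group the sample of higher share had the higher ratio. The part of this share in the comparisons above was not tested beyond a fit with the share as a covariate, where the median of the set was -0.02 and the counts at an unadjusted p under 0.05 were 12 higher (1.63%, against 2.09% of all regions) and 20 lower (2.72%, against 2.31%), near the background.

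**Figure D4:**
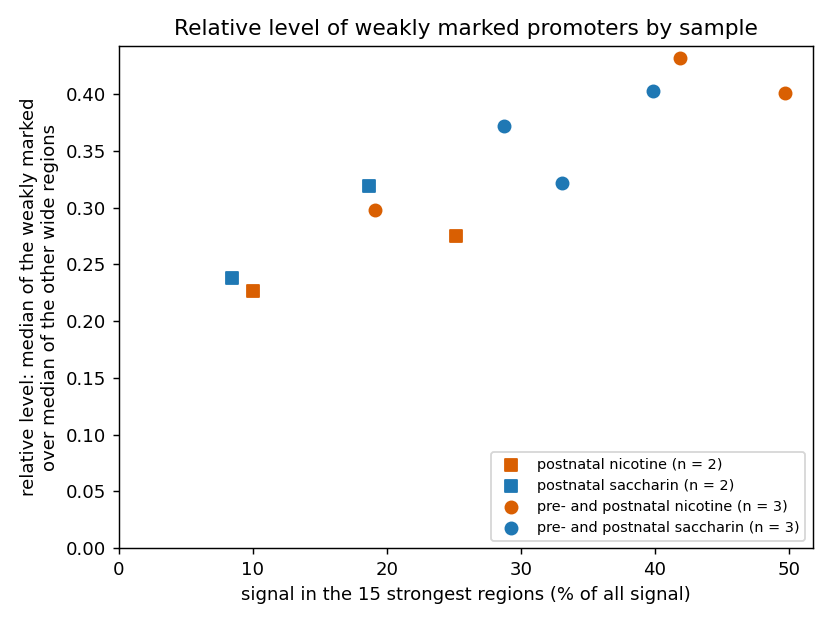
Median of the weakly marked regions over the median of the other wide regions (vertical axis, a ratio) against the percentage of all signal in the 15 strongest regions (horizontal axis), one point per sample, with the postnatal samples as squares and the pre- and postnatal ones as circles. The lowest ratio, 0.226, goes with a share of 10.04%, and the highest, 0.432, with a share of 41.9%. The lowest share, 8.47%, goes with a ratio of 0.238, and the highest share, 49.7%, with 0.401. The low ends are postnatal samples and the high ends pre- and postnatal ones, from separately adjusted values.

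Region by region the same difference was seen inside the postnatal table. Samples were set against each other by their share within each treatment (high: nicotine libraries 1 and 2 and saccharin libraries 3 and 4; low: the other two samples). 609 of the 734 regions (83.0%) were higher in the samples of high share, with a median log2 difference of 0.31, while 33.8% of the other wide regions were higher, with a median of -0.06. Narrow weak regions stood between them with 68.8% and 0.19. The saccharin samples of this contrast also chose the regions, so these values have no test. Sox5, with 19.1 and 43.0 in saccharin and 50.9 and 21.1 in nicotine, and Cacnb4, with 14.0 and 39.0 and with 36.1 and 17.8, were among the regions with large differences (1.18 and 1.20). Six2 (0.09), Hmx1 (0.04) and Hoxd8 (0.09) differed little, and Zic1 (-0.39) and Dlx1 (-0.22) were lower in the samples of high share.

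The difference varied with base composition of the promoter. With the 386 promoters in order of GC content and divided into 4 groups of 96 or 97, the median log2 difference between samples of high and low share was 0.38 in the group of lowest GC (38.3% to 53.7%), then 0.40, 0.26 and 0.14 in the group of highest GC (63.0% to 78.3%). Scn1a (5 CpG, 0.92) and Kcnmb2 (9 CpG, 1.16) lay toward one end and Six2 (37 CpG, 0.09) and Nkx6-1 (40 CpG, 0.19) toward the other. The median pre- and postnatal log2 difference of nicotine over saccharin in the same 4 groups was 0.07, 0.07, 0.05 and -0.07.

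**Figure D5:**
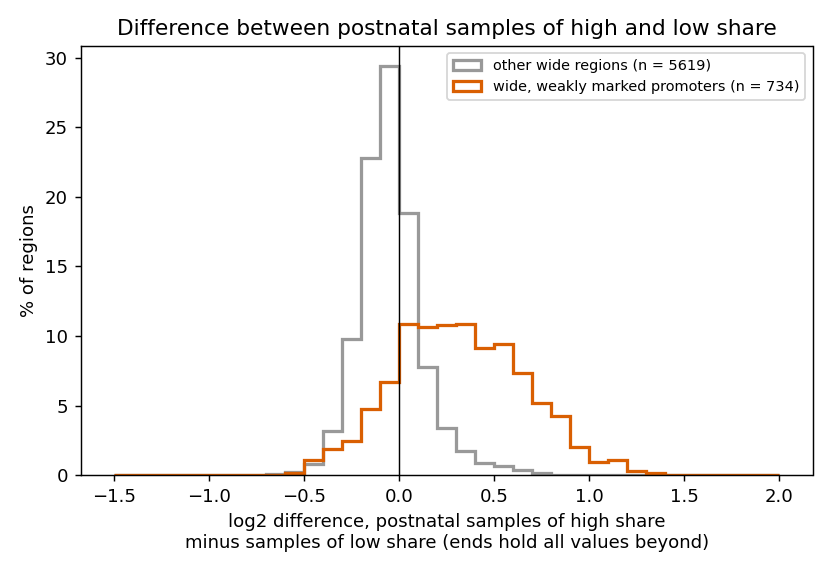
Distribution of the log2 difference between postnatal samples of high and low share in the 15 strongest regions, as a percentage of regions in bins of the difference, for the weakly marked regions (orange) and the other wide regions (grey). The orange distribution has its median at 0.31 and the grey one at -0.06.

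The postnatal comparison of nicotine with saccharin is given as values alone, because the saccharin libraries chose the regions. The median log2 difference of nicotine over saccharin was -0.10 in the set, -0.14 between the samples of high share and -0.07 between those of low share, against -0.0036 over all regions. When the rule was applied to the postnatal nicotine libraries it gave 845 regions, of which 690 were shared: 94.0% of the 734 and 81.7% of the 845. Six2 held 45.4 and 43.2 with nicotine and 29.3 and 31.7 with saccharin, and Cdkn1c, an imprinted inhibitor of the cell cycle, 74.7 and 82.6 against 54.3 and 50.3, so the samples did not overlap at either. Rps9 held 42.8 and 35.3 with nicotine and 44.8 and 61.4 with saccharin, again without overlap and in the other direction. Syp held 43.8 and 29.3 against 39.6 and 36.6, where the samples overlapped. Groups of so few samples often fail to overlap by chance, and the share of regions without overlap in this exposure is not given here. Some of the genes named here were also chosen after their values were seen. Lack of overlap at these genes is therefore not read as a difference with nicotine.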

How the data were processed

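H3K4me3 ChIP-seq signal was analysed in 14 libraries. Values are a signal deposited as read counts for each region, which the authors adjusted with edgeR, per the submitters' processing notes, which also name build mm9; 2.03% of values lay within 0.01 of a whole number, so no count model was used. For the aligner, the peak caller and the filters no source used here gives a name. Each of 2 tables held 19203 rows, of which 4322 without values were left out. Gene symbols came from the tables; 728 of the 734 regions matched a RefSeq table (GRCm38.p6), which restored symbols turned into dates.

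The pre- and postnatal libraries were fitted with limma 3.58.1 (trend, R 4.3.3) on log2(signal + 1) for regions where 3 or more libraries reached 1, two-sided, with Benjamini-Hochberg adjustment over all regions tested. The fit was tested on simulated data. Ratios per library were compared by exact permutation with scipy. Members and gene lists were chosen with earlier results of these data known, and 2 ribosomal S6 kinases were taken off the ribosomal list after values were seen. Genes named are, by rule, the regions of lowest and highest signal, those nearest the threshold, those of lowest p and up to 4 of each list; others, and the promoters printed, were chosen after their values were seen. Some genes that the rule names are not reported here. Alternatives changed the pseudocount, filter, normalisation, block, covariate, threshold and libraries.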

Additional observations from a re-analysis of the deposited data

Results flagged for a closer look

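Rsrc2, which encodes an arginine- and serine-rich protein (mm9 chr5:124198052-124199788), differed in opposite directions in the 2 exposures. After postnatal exposure it held 38.2 and 31.8 with nicotine and 45.9 and 62.3 with saccharin, and after pre- and postnatal exposure 49.3, 52.5 and 49.1 with nicotine and 35.3, 29.2 and 29.6 with saccharin. The log2 difference was -0.60 in the first and 0.67 in the second, 1.27 apart. The difference between exposures was not tested, and the postnatal saccharin samples also chose the region. Rsrc2 was named for its low p in the pre- and postnatal comparison, so the difference there was large by choice. The share of regions that differ as much between exposures is not given here.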

How the results depend on the processing

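No region had an adjusted p under 0.05 in the pre- and postnatal comparison under any alternative except the one without nicotine replicate 1, where 16 did (0 to 16 over the fits without 1 library), none of them weakly marked. The count of weakly marked regions at an unadjusted p under 0.05 was 25 (3.41%, against 3.59% of all regions). It ranged without 1 library from 11 (1.499%, against 2.46%, without saccharin replicate 1) to 134 (18.3%, against 11.4%, without nicotine replicate 1), and was 13 with a threshold of 45, which leaves 300 regions. Deviations of libraries with the same number were correlated at -0.11 and -0.10 for numbers 1 and 3, the only numbers both groups share. So few numbers cannot show whether they pair the samples. With a replicate block the count was 20 (2.72%, against 1.91% of all regions), the median log2 difference -0.05 and the regions called 0. The median over the set, 0.03, ranged from -0.07 to 0.18 without 1 library. The difference in ratio to the other wide regions, nicotine minus saccharin, was 0.0115 and ranged from -0.0161 to 0.0510 without 1 library. The difference in share of signal, 0.0420 percentage points, ranged from -0.137 to 0.278 and was -0.0829 with all regions in the sum. The count low in pre- and postnatal saccharin was 497 to 540 without 1 library and 475 in nicotine. Of 14 gene lists, 5 kept the sign of their median in all 13 alternative fits. The 10 regions of lowest p also kept their signs, which their choice by p in each direction and the lack of overlap between their groups largely fix. Unknown depth and 3 libraries a group limit all of these.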
